A study of Mus musculus with 13 samples.

Results

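The CCN genes were followed in the CD45- stroma of the thymus through injury and recovery. They encode secreted matricellular proteins, which sit in the extracellular matrix and pass signals to cells rather than build the scaffold itself. Members were taken by gene symbol: Ccn1 (older symbol Cyr61), Ccn2 (Ctgf), Ccn3 (Nov), Ccn4 (Wisp1) and Ccn5 (Wisp2). All 5 of the 5 members were found among the 53379 genes of the count table, and all 5 passed the filter on low counts, as did 19984 genes in all. The family was selected on the normalized counts of these same 13 libraries over the time course, from earlier results, so the levels of its members are described without a p-value.

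Bulk RNA-seq had been made from CD45- thymic stromal cells of 2-month-old wild-type C57BL/6 mice, with 4 libraries at steady state and 3 libraries on each of days 1, 4 and 7 that followed a sublethal dose of total body irradiation (TBI). The steady-state libraries are labelled untreated, and their columns name them as PBS controls of day 1 (replicate 2), day 4 (replicate 2) and day 7 (replicates 1 and 2). The cells had been depleted of CD45+ cells with magnetic beads and then sorted. The labels do not say whether a library was 1 mouse or a pool, so errors and p-values cover the spread between these libraries.

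CCN proteins bind integrins, heparan sulphate proteoglycans and LRP receptors, and most are built from the same series of modules, of which CCN5 lacks the carboxy-terminal one. CCN1 and CCN2 are textbook targets of YAP and TAZ, the transcriptional coactivators that the Hippo pathway restrains and that act through TEAD factors, and both are also induced by serum response factor and TGF-β. CCN3 is often found to oppose CCN2 in fibrosis models. CCN4 and CCN5 were named as proteins induced by Wnt1. In stromal tissues the family is known for its part in wound repair, vessel growth and fibrosis.

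Total counts ran from 15721866 to 52056896 per library (median 44078906). The fibroblast (FB) marker Pdgfra was between 616 and 1282 CPM (counts scaled to a common library size) in every library, the endothelial cell (EC) marker Pecam1 between 199 and 432, and the epithelial marker Epcam between 14.0 and 155. Ptprc, which encodes CD45, ran from 24.0 to 119 CPM at steady state, 12.7 to 14.99 at day 1, 4.07 to 4.54 at day 4 and 21.6 to 606 at day 7, so blood-cell RNA was present in differing amounts. One steady-state library, the PBS control of day 4, stood apart in FB matrix genes: 7 FB markers summed to 147173 CPM there, against 18373 to 87326 in the other 3. The fold changes and steady-state levels that moved most without it are given both ways. So are correlations within conditions between members and with the general FB and the EC marker sums. In bulk samples, fewer cells of a type and less RNA per cell cannot be told apart.

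Ccn5 was the member that rose after TBI, highest at day 1, lower at day 4 and between the 2 at day 7. Ccn5 (ENSMUSG00000027656, GRCm38 chr2:163820861-163833146, plus strand) encodes the member that lacks the carboxy-terminal module, a protein known to restrain smooth muscle growth. At steady state its 4 libraries had 16.8, 19.95, 19.0 and 18.0 CPM (18.4 ± 1.34, mean ± SD, n = 4). At day 1 the 3 libraries had 205, 175 and 177 CPM (186 ± 16.9, n = 3). Every library at day 1 was far above every library at steady state, and both groups were tight, with coefficients of variation of 7.26% and 9.08%.

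The mean was 10.1-fold that of steady state, a fitted log2 fold change of 3.33 (SE 0.31). Among the 11459 genes with a mean of at least 5 CPM, it ranked 29 from the highest log2 fold change. The rise was as large within tag families, sets of libraries grouped by the tag that ends their column names: it starts with k3, with kk or with neither. The set with neither need not share a tag, and its day 4 library has another tag than its other libraries. The log2 ratio of means was 3.51 for the single kk library at day 1 against the single one at steady state, and 3.30 for 2 libraries against 2 with neither tag.

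At day 4 Ccn5 was far lower than at day 1. The libraries had 32.9, 18.2 and 27.4 CPM (26.2 ± 7.44), which overlapped steady state, with a log2 fold change of 0.50 (SE 0.29). Between day 1 and day 4 it fell by 2.83 on the log2 scale (SE 0.34), and the libraries did not overlap.

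At day 7 the Ccn5 libraries had 57.8, 81.1 and 29.4 CPM (56.1 ± 25.9). All 3 lay above the 4 at steady state, with a log2 fold change of 1.61 (SE 0.29), and all lay below the 3 at day 1, with a log2 fold change of −1.73 (SE 0.32). The spread at day 7 was wide, and replicates 1 and 2 set most of the mean. Against steady state, the log2 ratio of means was 1.80 among k3 libraries (2 against 1) and 0.71 among kk libraries (1 against 1). Thymocyte RNA varied in the same libraries: 8 thymocyte markers summed to 167, 3931 and 1727 CPM in replicates 1, 2 and 3. Both it and Ccn5 were highest in replicate 2, but replicate 3 had more thymocyte RNA than replicate 1 and less Ccn5. Over the 13 libraries, the correlation of Ccn5 with that sum was 0.04 once the mean of each condition was removed. The part of thymocyte RNA in the day 7 level of Ccn5 was not tested.

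**Figure D1:**
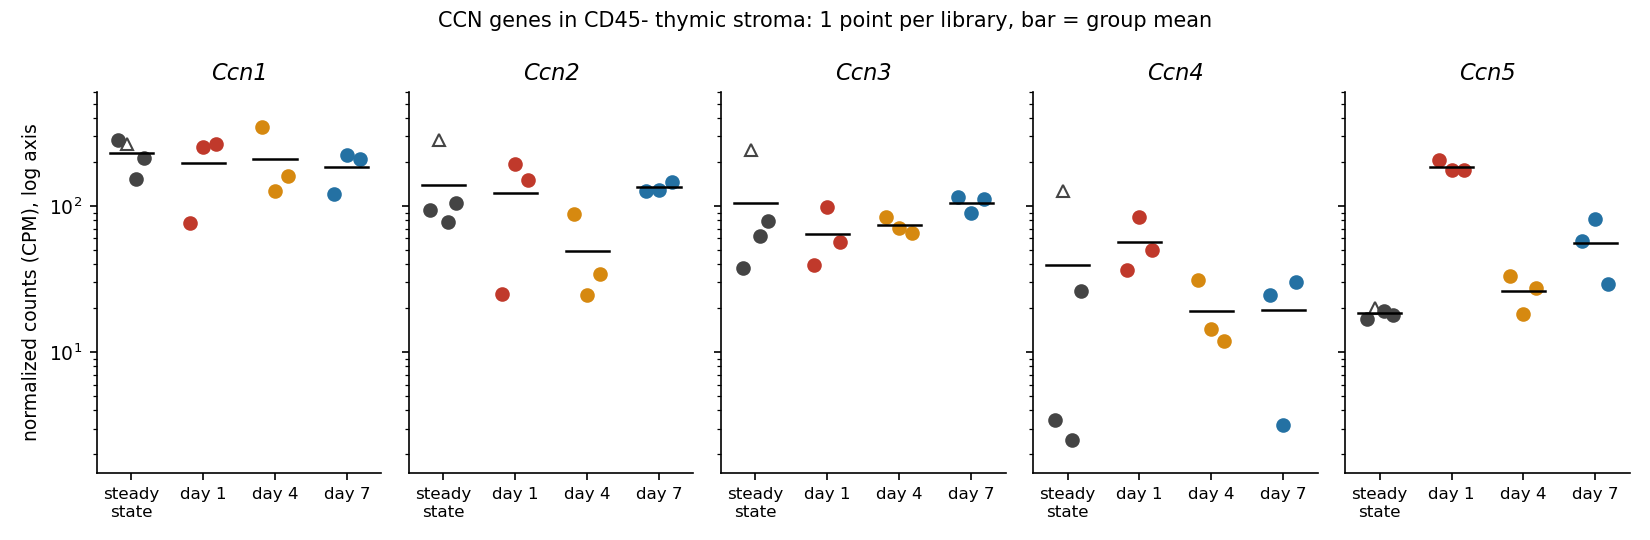
Normalized counts (CPM, log axis) of the 5 CCN genes in each library by condition, with 1 point per library and a bar at the group mean. The hollow triangle is the PBS control of day 4. The 3 Ccn5 points at day 1 (175 to 205 CPM) lie far above the 4 at steady state (16.8 to 19.95 CPM), while in the other panels the points of day 1 and steady state overlap.

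No change in Ccn1 was resolved over the time course. It encodes a ligand of several integrins that promotes adhesion and vessel growth and can drive FBs into senescence during wound healing. Ccn1 (ENSMUSG00000028195, chr3:145646976-145649981, minus strand) had 282, 265, 152 and 213 CPM at steady state (228 ± 58.8). It had 76.0, 251 and 265 CPM at day 1 (197 ± 105), and 344, 127 and 161 CPM at day 4 (211 ± 117). Its day 7 libraries had 121, 221 and 208 CPM (183 ± 54.1). The libraries overlapped in every comparison, and against steady state the log2 fold changes were −0.21 (SE 0.44), −0.12 (SE 0.44) and −0.32 (SE 0.44). Replicates differed more than conditions did: at day 1 the highest library held 3.49 times the CPM of the lowest.

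The Ccn1 promoter is shown because the promoter table held a window for this member and for no other, and because it carries the motif of the TEAD factors. The window is the 250 bases before the RefSeq start, GRCm38.p6 chr3:145649986-145650235, read on the minus strand. Capitals mark the TEAD motif CATTCC and the TATA box TATAAA.
Ccn1 promoter: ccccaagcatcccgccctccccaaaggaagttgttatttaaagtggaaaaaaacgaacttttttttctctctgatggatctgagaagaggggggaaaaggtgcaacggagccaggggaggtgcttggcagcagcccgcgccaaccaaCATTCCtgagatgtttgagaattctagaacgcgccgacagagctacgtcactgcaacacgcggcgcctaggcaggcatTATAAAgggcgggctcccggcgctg
Counted back from the start, CATTCC spans bases −103 to −98 and TATAAA bases −25 to −20, both on the strand of the gene. Both strands were searched. CATTCC stands in 12.6% of the 32851 promoter windows of the same length and TATAAA in 12.4%, so either motif is common. Neither a CArG box, the site of serum response factor, nor GTCTAGAC, a SMAD palindrome, was in this window, against 1.47% and 0.167% of all windows. Of the 19 YAP/TAZ target genes listed, 13 had a window and 6 of those hold CATTCC in at least 1 window. That counts genes, so it cannot be set against the share of single windows.

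Ccn2 had its lowest mean at day 4, where its 2 k3 libraries were low. It encodes connective tissue growth factor, the member most often tied to fibrosis downstream of TGF-β. Ccn2 (ENSMUSG00000019997, chr10:24595442-24598683, plus strand) had 94.2, 280, 77.0 and 105 CPM at steady state (139 ± 94.7). At day 1 its libraries had 24.8, 193 and 150 CPM (122 ± 87.2), spanning 7.75-fold, and at day 4 they had 88.4, 24.6 and 34.4 CPM (49.1 ± 34.3). At day 7 the libraries had 127, 128 and 146 CPM (134 ± 10.4), all above the 3 at day 4.

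The log2 fold change of Ccn2 against steady state was −0.18 (SE 0.62) at day 1, −1.51 (SE 0.65) at day 4 and −0.06 (SE 0.62) at day 7. From day 4 to day 7 it was 1.45 (SE 0.68). By tag family, the log2 ratio of means at day 4 against steady state was 0.05 with neither tag (1 against 2). With the k3 tag it was −3.25 (2 against 1, that control being the PBS control of day 4). The PBS control of day 4 held the highest value of all libraries, and without it steady state was 92.2 ± 14.3 CPM (n = 3) and the 3 log2 fold changes against it were 0.41, −0.91 and 0.54. Without it, the day 7 libraries of Ccn2 all lay above steady state. Of the exonic bases of Ccn2, 23.2% overlap Gm15270 on the other strand, and counting without strand leaves out reads that cover both.

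Ccn3 had both its lowest and its highest value at steady state. It encodes a regulator of cell growth first found overexpressed in nephroblastoma. Ccn3 (ENSMUSG00000037362, chr15:54745702-54754039, plus strand) had 37.8, 242, 62.0 and 78.6 CPM at steady state (105 ± 92.9). The libraries had 39.6, 97.8 and 56.5 CPM at day 1 (64.6 ± 29.9), then 83.8, 70.8 and 65.7 CPM at day 4 (73.5 ± 9.34). At day 7 they had 114, 89.1 and 111 CPM (105 ± 13.7), all above the 3 at day 4 with a log2 fold change of 0.51 (SE 0.54). Against steady state the log2 fold changes were −0.70 (SE 0.51), −0.52 (SE 0.51) and 0.00 (SE 0.50). Without the PBS control of day 4 steady state was 59.5 ± 20.5 CPM (n = 3), the log2 fold changes were 0.12, 0.30 and 0.82, and the day 7 libraries then all lay above steady state.

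Ccn4 was the most variable member at steady state and at day 7, by coefficient of variation. At days 1 and 4 its 43.3% and 54.0% were below the 71.2% and 69.9% of Ccn2. It encodes a Wnt1-induced protein made by osteoblasts and activated FBs. Ccn4 (ENSMUSG00000005124, chr15:66891320-66923201, plus strand) had 3.42, 127, 2.50 and 26.0 CPM at steady state (39.7 ± 59.2), a 50.9-fold span, or 10.6 ± 13.3 CPM (n = 3) without the PBS control of day 4. Day 1 libraries had 36.2, 83.9 and 50.04 CPM (56.7 ± 24.5), day 4 libraries 31.0, 14.5 and 11.96 CPM (19.1 ± 10.3), and day 7 libraries 24.6, 3.20 and 30.3 CPM (19.4 ± 14.3). All 3 libraries of day 1 lay above all 3 of day 4 and all 3 of day 7, with log2 fold changes of −1.57 (SE 1.17) from day 1 to day 4 and −1.55 (SE 1.17) from day 1 to day 7.

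For Ccn4 the comparison with steady state turned on 1 library. With all 4 controls the log2 fold change was 0.51 (SE 1.06) at day 1, −1.06 (SE 1.10) at day 4 and −1.04 (SE 1.10) at day 7. Without the PBS control of day 4 it was 2.43, 0.85 and 0.88, and the 3 libraries of day 1 then lay above the 3 remaining controls. By tag family, the log2 ratio of means at day 1 was 4.50 with neither tag (2 against 2) and 0.48 with the kk tag (1 against 1). At day 4 it was 3.39 with neither tag (1 against 2) and −3.26 with the k3 tag (2 against 1, that control being the PBS control of day 4).

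**Figure D2:**
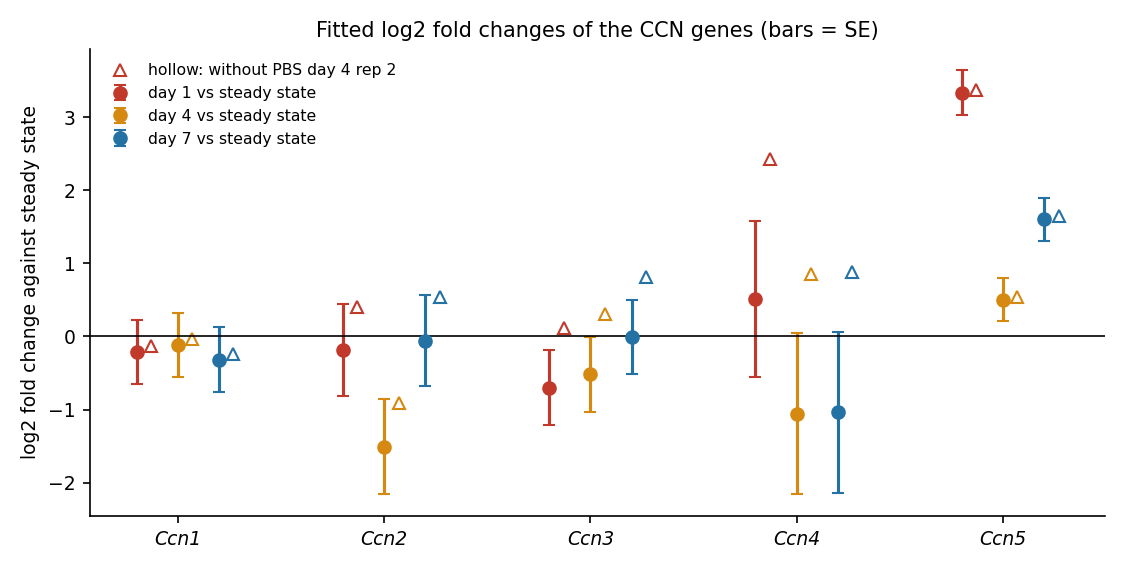
Fitted log2 fold change of each CCN gene against steady state on each day after TBI, with filled points from all 13 libraries and bars of 1 SE. Hollow triangles are the values without the PBS control of day 4. Ccn5 stands at 3.33 at day 1 with all controls, and between 3.26 and 3.41 with any single library left out, while Ccn4 moves from 0.51 to 2.43 at day 1 and from below to above 0 at days 4 and 7.

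The sixth gene of the family, Ccn6, linked to a cartilage disease of childhood, did not pass the filter. It had 1 to 7 counts per library at steady state, 0 to 3 at day 1, 0 to 7 at day 4 and 2 to 32 at day 7. At these counts its level could not be followed. Of the exonic bases of Ccn6, 34.0% overlap Tube1 on the other strand, where counting without strand leaves out reads that cover both.

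Read against all 19984 genes tested, the counts of members were as follows. At day 1 against steady state, 1 of 5 members was past an adjusted p-value of 0.05 upward (Ccn5), where 1.68% of genes were, and 0 downward, where 0.671% were. Libraries did not overlap for 1 member that was higher, against 7.25% of genes, and for 0 that were lower, against 8.56%. At day 4, 0 members passed with edgeR, where 0.05% of genes passed upward and 0.24% downward. DESeq2 called 0 members and 645 of the 19984 genes. By edgeR 1 member was at an unadjusted p under 0.05, as were 2602 of all genes. Libraries did not overlap for 0 members in either direction, against 6.44% of genes higher and 8.22% lower.

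At day 7, 0 members passed with edgeR, where 0.005% of genes passed upward and 0% downward. DESeq2 called 1 (Ccn5) and 1081 of the 19984 genes. By edgeR 1 member was at an unadjusted p under 0.05, as were 2691 of all genes. Libraries were higher without overlap for 1 member, against 2.82% of genes, and lower for 0, against 4.67%. From day 1 to day 4, 1 member fell past the threshold (Ccn5) and 0 rose, where 1.07% of genes fell, 0.355% rose and 1.43% did either. Libraries were lower without overlap for 2 members, against 13.7%, and higher for 0, against 12.6%. From day 1 to day 7, 1 member fell (Ccn5) and 0 rose, where 4.45% of genes fell, 3.68% rose and 8.13% did either. Libraries were lower without overlap for 2 members, against 14.8%, and higher for 0, against 12.7%.

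From day 4 to day 7 edgeR called 0 members and DESeq2 1 (Ccn5), with 1 at an unadjusted p under 0.05, where edgeR called 2.77% of genes upward, 1.13% downward and 3.9% in either direction. DESeq2 called 1919 of the 19984 genes there, and 3735 were at an unadjusted p under 0.05 by edgeR. Libraries were higher without overlap for 2 members (Ccn2 and Ccn3), against 12.2%, and lower for 0, against 14%. Without the PBS control of day 4, libraries were higher without overlap for 2 members at day 1, against 12.8% of genes, for 0 at day 4, against 12.7%, and for 3 at day 7, against 8.22%. They were lower for 0 members on each day, against 14.6%, 15.3% and 9.6%. Since these comparisons served to choose the family, nothing is read from the counts.

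Scaled by exonic length, Ccn5 stood below Ccn1, Ccn2 and Ccn3 at steady state and next to Ccn1 at day 1. At steady state Ccn1 stood at 113 RPKM (75.1 to 140 over libraries), Ccn2 at 48.6 (26.9 to 97.9), Ccn3 at 36.7 (13.2 to 84.4), Ccn5 at 9.58 (8.75 to 10.4) and Ccn4 at 7.20 (0.452 to 23.0). The ranges of each neighbouring pair overlapped there except for Ccn3 and Ccn5. Without the PBS control of day 4 the order was the same, with Ccn2 at 32.2, Ccn3 at 20.7, Ccn5 at 9.32 and Ccn4 at 1.93 RPKM, and only Ccn2 and Ccn3 overlapped. At day 1 Ccn5, at 96.5 RPKM (90.8 to 107), stood beside Ccn1 at 97.8 (37.6 to 131), and its libraries lay above all those of Ccn2, at 42.8 (8.68 to 67.3). Ccn3 stood at 22.5 RPKM (13.8 to 34.1) and Ccn4 at 10.3 (6.57 to 15.2), both with ranges that overlap that of the neighbour above. At day 4 the order was Ccn1 at 104, Ccn3 at 25.6, Ccn2 at 17.2, Ccn5 at 13.6 and Ccn4 at 3.47. There Ccn1 and Ccn4 stood clear of their neighbours, and the 3 between them overlapped in turn. At day 7 it was Ccn1 at 90.8, Ccn2 at 46.7, Ccn3 at 36.5, Ccn5 at 29.2 and Ccn4 at 3.51, of which only Ccn3 and Ccn5 overlapped.

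**Figure D3:**
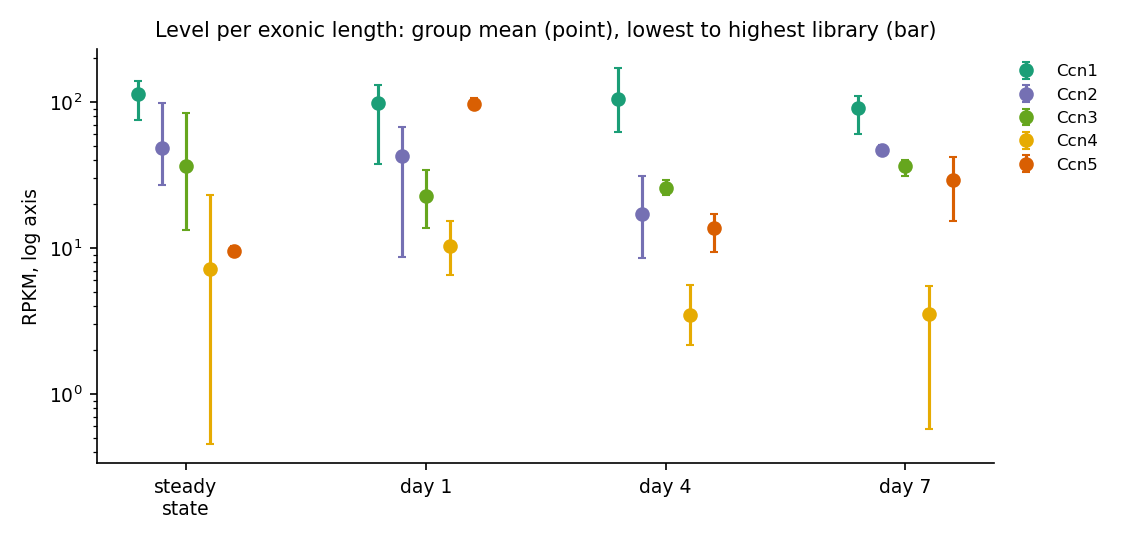
Level of the CCN genes per exonic length (RPKM, log axis) by condition, with the point at the group mean and the bar from the lowest to the highest library. Ccn5 moves from 9.58 RPKM at steady state to 96.5 at day 1, next to Ccn1 at 97.8, and returns to 13.6 at day 4.

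Some pairs among Ccn1 to Ccn4 varied together between libraries of the same condition. Over the 13 libraries, on log2(CPM + 0.5), Ccn1 and Ccn2 had a Pearson's correlation of 0.68, and 0.86 once the mean of each condition was removed. For example, day 1 replicate 1 was the lowest of its group for both, and day 4 replicate 1 the highest. Ccn3 and Ccn4 had 0.51 and, within conditions, 0.84. Without the PBS control of day 4, the correlations within conditions were 0.90 for Ccn1 with Ccn2 and 0.64 for Ccn3 with Ccn4. Ccn2 with Ccn3 had 0.71 within conditions, and 0.64 without that control, and Ccn2 with Ccn4 had 0.57 and 0.38. The weakest were Ccn1 with Ccn3, at 0.31 and 0.33, and Ccn1 with Ccn4, at 0.23 and 0.19. Ccn5 had −0.21 to 0.087 with the others within conditions, and −0.40 to 0.067 without that control, the lowest being with Ccn4. The libraries share sorting, depth and cell makeup, so these are descriptions of the libraries.

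Ccn3 and Ccn4 varied with the sum of 7 general FB markers, which is mostly collagen and other matrix RNA, but not with every FB list. The summed level of 7 of them (Pdgfra, Col1a1, Col1a2, Col3a1, Dcn, Lum and Dpt) had a correlation within conditions of 0.93 with Ccn3 and 0.90 with Ccn4, and of 0.93 and 0.83 without the PBS control of day 4. With 2 intermediate FB markers the values were 0.86 and 0.92, with 3 medullary FB markers 0.36 and 0.34, and with 3 capsular FB markers −0.069 and −0.051. The values of these smaller lists include the PBS control of day 4 and were not computed without it. That library held 4017 CPM of the 2 intermediate FB markers, against 1017, 1069 and 1908 CPM in the other controls. The general sum had 0.62 with Ccn2, 0.23 with Ccn1 and −0.13 with Ccn5, and without the PBS control of day 4 0.48, 0.19 and −0.25. Ccn1 was closest to 7 EC markers, at 0.70 within conditions, or 0.77 without that control. Ccn2 had 0.51 with the same EC markers, and 0.73 without that control. At day 1 the FB sum ran from 29291 to 87158 CPM, inside the 18373 to 147173 CPM of steady state.

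Some marker sums of other cells did not overlap between day 1 and steady state, beside the rise of Ccn5. The 3 medullary FB markers summed to 504 to 699 CPM at day 1 against 1213 to 1705, and 1 of the 3, Postn, passed the threshold downward. The 8 thymocyte markers summed to 99.2 to 128 CPM against 191 to 659, and 0 of the 8 passed. The 3 erythroid markers summed to 289 to 972 CPM against 1557 to 3571, and 3 of 3 passed downward. In these lists 0 markers were at 0 counts throughout either group. The 6 markers of vascular smooth muscle and pericytes, at 928 to 1064 CPM, overlapped the 593 to 1375 CPM of steady state, and the 4 mesothelial markers, at 1073 to 1701 CPM, overlapped 448 to 3240 CPM. The part of cell makeup in the rise of Ccn5 was not tested.

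**Figure D4:**
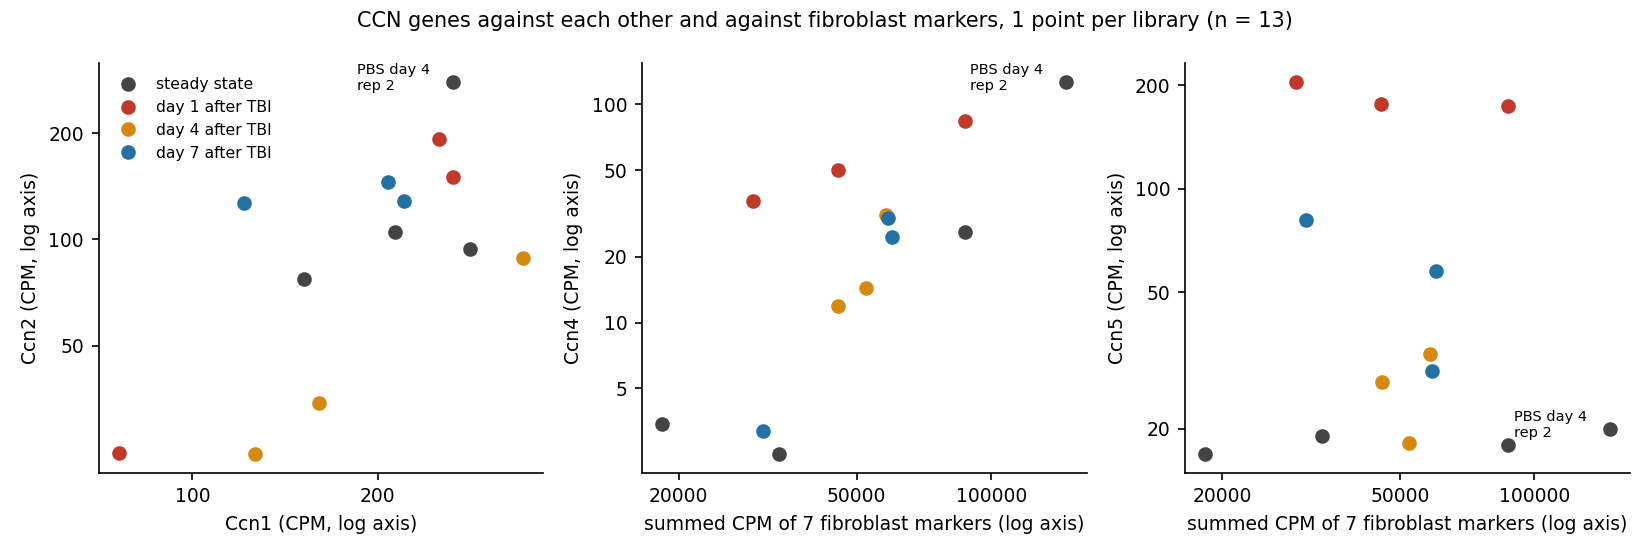
Each point is 1 of the 13 libraries, in CPM on log axes: Ccn2 against Ccn1 (left), Ccn4 against the summed level of 7 FB markers (middle) and Ccn5 against the same sum (right), coloured by condition. Ccn2 follows Ccn1 and Ccn4 follows the FB markers within a condition (correlations within conditions of 0.86 and 0.90). The 3 Ccn5 points at day 1 lie at 175 to 205 CPM over FB sums of 29291 to 87158 CPM, inside the 18373 to 147173 CPM of steady state.

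The genes most like each member were read from 11454 genes with a mean of at least 5 CPM, by Pearson's correlation over the 13 libraries. The order depends on that measure: by Spearman's, Sfrp4 ranked 73 for Ccn3, Vim 120 and Adora2b 181 for Ccn4, and Tcirg1 and Pnpt1 175 for Ccn5. Nearest to Ccn1 were Hook2, a linker of vesicles to microtubules (r = 0.87), Csf2ra, the GM-CSF receptor α chain (0.87), and Ier2, an immediate early gene (0.86). Ier2 had 75.4 CPM in day 1 replicate 1 and 481 CPM in day 4 replicate 1, the same libraries in which Ccn1 was lowest and highest. Nearest to Ccn2 were Txnrd1, a thioredoxin reductase (0.97), Naa50, an N-terminal acetyltransferase (0.97), and Cdc16, a subunit of the anaphase-promoting complex (0.96).

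Nearest to Ccn3 were Sfrp4, a secreted Wnt antagonist (0.91), the matrix protein gene Fbln2 (0.89) and Gnai3, a G protein subunit (0.89). Nearest to Ccn4 were Vim, the intermediate filament vimentin of mesenchymal cells (0.94), Efemp2, a fibulin needed for elastic fibres (0.94), and Adora2b, an adenosine receptor (0.94). These 4 sets kept correlations of 0.86 to 0.96 within conditions.

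The genes nearest to Ccn5 had higher means at day 1, as it did. They were Mars, the methionyl-tRNA synthetase (0.94), Tcirg1, a subunit of the vacuolar proton pump (0.94), and Pnpt1, a mitochondrial RNA-degrading enzyme (0.93), and within conditions the correlations were 0.54, 0.61 and 0.66. Mars had 72.6 ± 9.94 CPM at steady state and 127 ± 12.2 at day 1. Tcirg1 had 30.5 ± 3.92 and 94.9 ± 4.58, and Pnpt1 had 27.0 ± 3.01 and 66.5 ± 5.43. At day 4 their means were 76.6, 38.6 and 23.3 CPM.

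Genes of the pathways around the family were tested in the same fit. They were 99 genes in 7 lists: components of the Hippo and YAP/TAZ-TEAD pathway, other YAP/TAZ targets, TGF-β ligands, receptors, SMADs and early targets, Wnt/β-catenin targets, immediate early genes, integrins and other CCN-binding receptors, and other matricellular genes. All 99 passed the filter. At day 1, 2 of the 99 were past the threshold (2.02%), against 2.35% of all genes tested. At days 4 and 7 edgeR called 0 of them, with 12 at an unadjusted p under 0.05 on either day, and DESeq2 called 2 and 7. Of all genes tested, edgeR called 0.29% at day 4 and 0.005% at day 7. DESeq2 called 645 and 1081 of the 19984 genes on those days. By edgeR, 2602 and 2691 of them were at an unadjusted p under 0.05.

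Of the TGF-β list, Pmepa1, an early target that restrains SMAD signalling, rose at day 1. Its 4 libraries at steady state had 12.6, 22.0, 11.2 and 19.999 CPM and its 3 at day 1 had 43.4, 36.0 and 27.5 CPM, without overlap. The log2 fold change was 1.12 (SE 0.27, adjusted p = 0.0478 by edgeR, quasi-likelihood F-test, adjusted over all genes). The other 15 genes of that list did not pass with edgeR, the lowest being Tgfbi at −1.41, and DESeq2 called 1 gene of the list. The receptors Tgfbr1 and Tgfbr2 had log2 fold changes of −0.23 and −0.18, and the ligand Tgfb1 −0.19. The median of the list was −0.07, near that of all genes (−0.10).

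Of the 11 other matricellular genes, Postn, which encodes the matrix protein periostin, fell at day 1. Its libraries had 931, 1414, 872 and 1410 CPM at steady state and 337, 560 and 472 CPM at day 1, without overlap. The log2 fold change was −1.34 (SE 0.29, adjusted p = 0.0266 by edgeR, quasi-likelihood F-test, adjusted over all genes). Spp1 (osteopontin) had the highest fitted value of that list, 2.07, and Sparcl1 the lowest, −1.47, and neither passed with edgeR, while DESeq2 called 3 genes of the list. Both adjusted p-values lie near the threshold: leaving out 1 library at a time, the number of related genes called at day 1 ran from 0 to 7. It was 0 in turn without PBS day 7 replicate 1 or 2, any library of day 1, day 4 replicate 1 or day 7 replicate 3. It was 7 without the PBS control of day 4 and 1 without day 4 replicate 2 or 3 or day 7 replicate 1 or 2.

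The YAP/TAZ pathway was described by 2 lists, here at day 1. Of all 19984 genes, DESeq2 called 1399 on that day, and 3444 were at an unadjusted p under 0.05 by edgeR. Of the 16 components, edgeR and DESeq2 called 0, and 0 were at an unadjusted p under 0.05. The log2 fold change was 0.13 for Yap1 and −0.59 for Wwtr1, which encodes TAZ. Of the 19 other targets edgeR called 0 and DESeq2 1, and 2 were at an unadjusted p under 0.05, with fitted values from −1.17 (Amotl2) to 1.56 (Fjx1) and a median of −0.38. Of the 9 Wnt/β-catenin targets edgeR and DESeq2 called 0, with 1 at an unadjusted p under 0.05. Their median was −0.61, against −0.10 for all genes. Of the 9, 1 (Apcdd1) had a fitted value above 0 (0.01), as did 8708 of all 19984 genes. Some of the 9 had low levels, such as Notum, with means of 0.13 CPM at day 1 and 0.28 at steady state.

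Of the 12 receptors edgeR and DESeq2 called 0 at day 1, with 0 at an unadjusted p under 0.05 and a median of 0.07. Itgav, the αv chain that CCN proteins bind, had a log2 fold change of 0.35, Itgb1 −0.48 and Lrp1 0.37. Of the 16 immediate early genes edgeR and DESeq2 called 0 at day 1, with 1 at an unadjusted p under 0.05. At day 7 all 16 had fitted values below 0, from −2.50 (Fosb) to −0.23 (Ier3), with a median of −0.80 against 0.00 for all genes. Of all 19984 genes, 10042 had fitted values above 0 at day 7. The spread of the controls differed within the list: at steady state Fosb had 65.6 ± 74.4 CPM and Klf4 34.9 ± 7.06 CPM. EdgeR called 0 of the 16, DESeq2 called 4, and 6 were at an unadjusted p under 0.05. Of all 19984 genes, DESeq2 called 1081 at day 7, and 2691 were at an unadjusted p under 0.05 by edgeR.

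Between days, Spp1 fell from 205 ± 95.6 CPM at day 1 to 5.65 ± 1.30 at day 4 and 1.98 ± 0.37 at day 7. It was the 1 related gene past the threshold from day 1 to day 4 (log2 fold change −5.17, SE 1.09, adjusted p = 0.0326 by edgeR), and from day 1 to day 7 it fell by 6.69 on the log2 scale (SE 1.17, adjusted p = 0.00672). From day 1 to day 7 Tnc, which encodes tenascin C, also fell (log2 fold change −2.71, SE 0.51, adjusted p = 0.00927 by edgeR). F3, which encodes tissue factor, rose by 1.10, Sparcl1 by 1.52 and the leukocyte integrin chain Itgb2 by 2.80 on the log2 scale (edgeR adjusted p of 0.0445, 0.0361 and 0.0431). The libraries of Itgb2 overlapped, with 69.7 ± 68.1 CPM at day 7. Ptprc had 12.7 to 14.99 CPM at day 1, 4.07 to 4.54 at day 4 and 21.6 to 606 at day 7. The part of blood-cell RNA in the level of Itgb2 was not tested. From day 4 to day 7 Fos, an immediate early gene, fell by 1.64 (SE 0.42, adjusted p = 0.0455) and Itgb2 rose by 3.40 (SE 0.79, adjusted p = 0.0339), by edgeR's quasi-likelihood test. These genes were chosen after their values were seen.

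**Figure D5:**
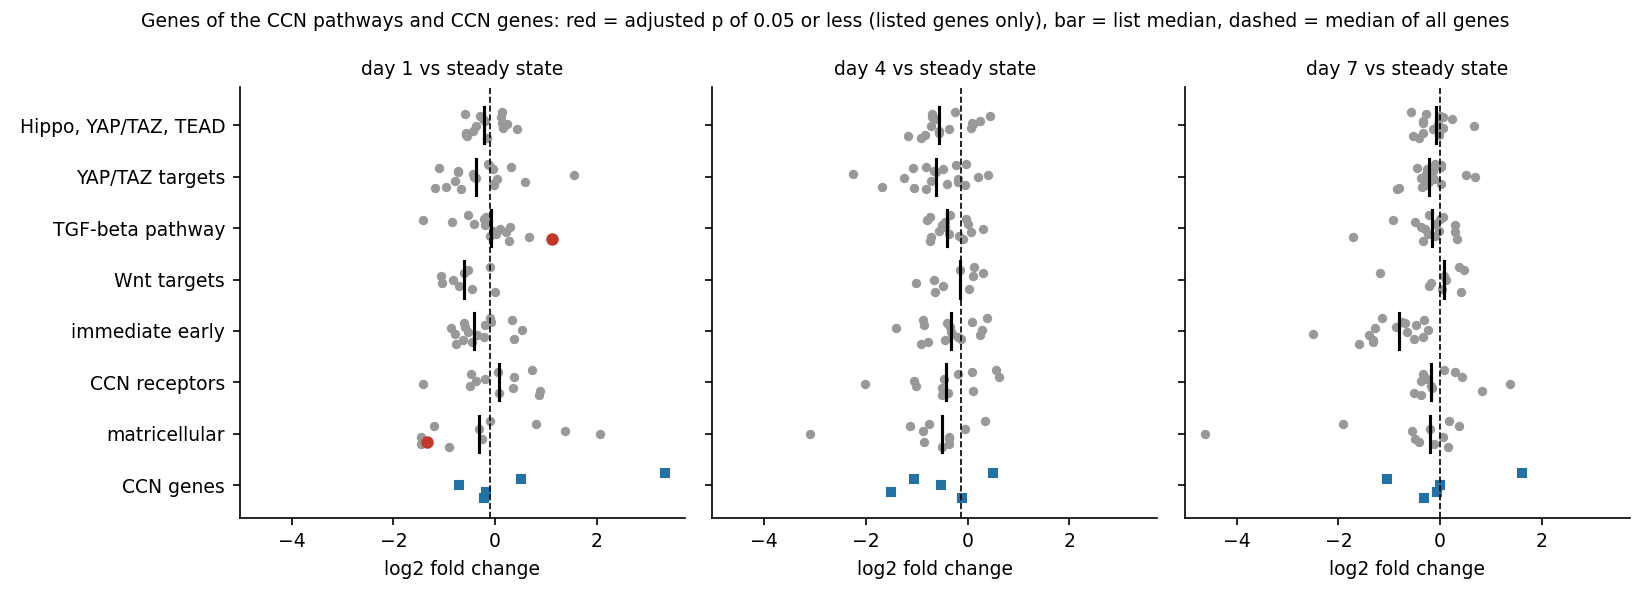
Fitted log2 fold change against steady state at days 1, 4 and 7 of the 99 genes of the CCN pathways in 7 lists (points, red where the adjusted p-value was 0.05 or less), with a bar at the median of each list and a dashed line at the median of all genes. Squares are the 5 CCN genes. At day 1, 2 listed genes are red (Pmepa1 at 1.12 and Postn at −1.34), and the Ccn5 square at 3.33 lies above every listed gene.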

How the data were processed

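CD45- thymic stromal cells of 13 libraries were analysed. The submitters' processing notes name Trimmomatic 0.38, STAR 2.7.0e, featureCounts 1.6.3 and GRCm38.p5. The authors deposited whole-number counts per gene, not normalized, with exonic lengths, and by default featureCounts drops multi-mapping and ambiguous reads. All value columns were matched to labels, the steady-state columns to their group. The meaning of the column tags (k3, kk, neither) is not given in the sources used here, and m0 marks only day 7.

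Counts were fitted with edgeR 4.0.16 (R 4.3.3): TMM, filterByExpr (minimum count 10, minimum total 15), all 13 libraries, a term for condition, the quasi-likelihood F-test, Benjamini-Hochberg adjustment over 19984 genes and a threshold of 0.05. SE is the log2 fold change over the square root of F. CPM use TMM library sizes, and RPKM the deposited lengths. The steps were tested on simulated data. Positions came from the count table, symbols from a gene name table (53274 of 53379 identifiers), exon overlaps from GENCODE M21 and the promoter from RefSeq. DESeq2 1.42.0 and limma 3.58.1 served alternatives and fits.

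The members and lists were chosen with earlier results of these data known. The genes named were the members, Ccn6, the 3 genes nearest to each member, the related genes past the threshold against steady state (up to 3 per list), and markers. All others were named after their values were seen. One related gene past the threshold between days is not reported here.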

Additional observations from a re-analysis of the deposited data

Results flagged for a closer look

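Steady-state levels of 10 genes were screened with Dixon's ratio (critical value 0.829), which divides an extreme library's distance from its neighbour by the spread of the group. Chance flags about 1 in 20 groups, and 2 genes were past it, both in the PBS control of day 4. Ccn2 had 280 CPM there against 77.0 to 105 in the others (ratio 0.861). Ccn6 had 0.025 CPM, which rests on 1 count (ratio 0.936). Ccn3 and Ccn4, at 0.80 and 0.81, were just under the critical value in the same library.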

How the results depend on the processing

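No member moved by as much as 1 SD between libraries, but against steady state that SD includes the PBS control of day 4. For Ccn4 at day 1 the SD was 2.00, so a move from 0.51 to 2.43 without that control stayed within it. The screen could therefore hardly flag a member that rests on that library. Without the PBS control of day 4 the sign turned from below to above 0 for Ccn4 at days 4 and 7, Ccn3 at days 1 and 4 (and day 7, from near 0) and Ccn2 at days 1 and 7. Ccn5 at day 1 had a log2 fold change of 3.26 to 3.41 when single libraries were left out. Ccn5 at day 7 passed in 4 of 18 (no filter, DESeq2, without PBS day 4 replicate 2, without day 7 replicate 1).

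The numbers of all genes called, which serve as background, depended more on the settings. For days 1, 4 and 7 against steady state, the reported fit gave 469, 58 and 1, and DESeq2 1399, 645 and 1081. A fit of only the conditions compared gave 228, 146 and 0, and the tag family as a covariate 1066, 33 and 0. Without the filter, days 4 and 7 gave 250 and 627. Leaving out single libraries gave 252 to 797, 19 to 226 and 0 to 622. From day 1 to day 4, day 1 to day 7 and day 4 to day 7, the reported fit called 285, 1625 and 779 genes and DESeq2 960, 2940 and 1919. The tag covariate gave 163 from day 1 to day 4. From day 4 to day 7, no filter gave 1265 and only the conditions compared 394. Leaving out single libraries gave 87 to 362, 472 to 2043 and 15 to 1507.

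Of the 99 related genes, DESeq2 called 5, 2 and 7 on the 3 days. At day 1, only the conditions compared gave 0 and the tag covariate 4, and at days 4 and 7 no filter gave 1 and 5. Leaving out single libraries gave 0 to 7 at day 1 and 0 to 1 at day 7. Members called at day 7 numbered 1 with no filter and 1 with DESeq2, and 0 to 1 with single libraries left out. From day 4 to day 7 DESeq2 called 1, and leaving out single libraries gave 0 to 1 (1 without day 7 replicate 3).

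With the replicate number as a block over the 9 irradiated libraries, 56, 640 and 0 genes were called between days, and 0 members from day 1 to day 4 or from day 1 to day 7, where Ccn5 had passed, at blocked log2 fold changes of −2.83 and −1.77. Same-numbered libraries of different days did not deviate together (mean correlation −0.25 over 9 pairs, against 0.10 over 18 others), and 1 of 9 libraries correlated best with its own number, so the numbers were not taken as pairs. The cause of these changes was not tested.

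Non-overlap without the PBS control of day 4 was counted after seeing the data. At 3 or 4 libraries a condition, the SE of Ccn1 to Ccn4, 0.44 to 1.17 on the log2 scale, limited what could be resolved. The −1.51 of Ccn2 at day 4 was called under 0 of 18 alternatives. Low counts limited Ccn6.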
